A study of Mus musculus with 24 samples.

Results

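The nuclear genes for the subunits of the mitochondrial respiratory chain and ATP synthase were followed in 2 kinds of myeloid-derived suppressor cell (MDSC), an immature cell of the myeloid lineage that accumulates with tumours and dampens T cell responses. Members were all genes of the deposited table whose symbols begin with Ndufa, Ndufb, Ndufc, Ndufs or Ndufv and a digit, with Uqcr, with Cox and a digit between 4 and 8, or with Atp5, together with Sdha, Sdhb, Sdhc and Sdhd. This gave 84 of the 23479 genes, 37 of complex I, 4 of complex II, 8 of complex III, 18 of complex IV and 17 of complex V. The rule reads symbols only, although the set was proposed with earlier results of these data known. Ndufa4 is counted with complex I by its symbol, although its protein is now placed in complex IV. Atp5sl and Atp5s carry the current RefSeq symbols Dmac2 and Dmac2l and are known as assembly or coupling factors rather than core subunits. Both are counted with complex V by symbol only.

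The respiratory chain passes electrons from NADH through complex I, or from succinate through complex II, by way of ubiquinone to complex III, cytochrome c and complex IV, which reduces oxygen. Complexes I, III and IV pump protons across the inner mitochondrial membrane, and complex V, ATP synthase, uses the gradient to make ATP. Mature neutrophils are known to rely mainly on glycolysis and to hold few mitochondria, whereas monocytes keep an active respiratory chain. A few subunits are made by the mitochondrial genome, whose genes were not analysed here.

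The cells came from spleens of mice with B16 melanoma tumours of more than 25 mm2. They were flow-sorted into a monocytic kind (M-MDSC) and a polymorphonuclear kind (PMN-MDSC), each over 99% pure per the labels, and total RNA was sequenced. There were 24 libraries in 8 groups of 3, 1 group for each combination of genotype label, treatment and cell type. The genotype was labelled IL-6 knockout (KO; strain B6.129S2-Il6tm1Kopf/J) or wild type (WT; C57BL/6). Lymphodepleted (LD) mice had received cyclophosphamide and fludarabine, a chemotherapy that kills lymphocytes and other dividing cells, and untreated (UT) mice had not, with spleens taken on day 7 after treatment. All 8 groups came from tumour-bearing mice.

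Total reads per library ran between 7237462 and 11193088 in M-MDSCs and between 3249647 and 9999731 in PMN-MDSCs. The ribosomal transcript Rn45s took 6.07 to 19.8% of reads in M-MDSC libraries and 2.94 to 18.0% in PMN-MDSC libraries. Defining markers of each cell type had higher medians in its own libraries, but not all separated the 2 cell types. The monocyte markers Ly6c2 and Csf1r overlapped. Ly6c2 ran at 366 to 1723 in M-MDSCs and 78.4 to 974 in PMN-MDSCs, and Csf1r at 3965 to 9520 and 783 to 4520. Ccr2, a monocyte chemokine receptor, was at a normalized count of 3366 to 7506 in M-MDSCs and 32.1 to 321 in PMN-MDSCs, and Cxcr2, a neutrophil chemokine receptor, at 2.64 to 58.0 in M-MDSCs and 2038 to 7140 in PMN-MDSCs. Il6, the targeted gene, ran against the genotype labels, at 16.2 to 220 in the 12 KO-labelled libraries and 0 to 7.20 in the 12 WT-labelled ones. Every direction between genotypes is therefore a direction between labels.

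Promoter sequences are given because nuclear genes of the chain are known targets of nuclear respiratory factor 1 (NRF1) and of ETS-family factors such as GABP. RefSeq promoter windows on GRCm38.p6, from 250 bases before to 50 bases after each start, were available for 69 of the 84 genes, with 75 starts in all. The NRF1 word, GCGC then any base then TGCGC, searched on both strands, was present in 18 of these 75 windows (24%), against 1512 of 32851 windows of all genes (4.60%). The ETS word CCGGAAG was present in 16 (21.3%), against 8.86% of all windows, and the YY1 word AAGATGGC in 12 (16%), against 2.75%. The TATA word TATAAA was present in 8 (10.7%), against 13.6% of all windows. The member windows were richer in G and C, with a median of 57.3% against 52.7% over all windows. Among windows with at least that median, the NRF1 word was in 12 of 39 member windows and in 10.2% of all 11998.

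Of the windows, 4 are shown for their 150 bases before the start, in lower case on the gene's own strand, with NRF1 and ETS words in capitals. Atp5k, Ndufa5 and Atp5h were higher in M-MDSCs in all 4 comparisons of the cell types, while Sdha was called in none of them, so the set holds members of both kinds.
Atp5k chr5:108434400-108434549, minus strand: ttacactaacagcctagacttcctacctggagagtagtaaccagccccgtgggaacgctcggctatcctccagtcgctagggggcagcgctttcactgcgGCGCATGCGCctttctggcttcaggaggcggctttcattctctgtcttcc
Ndufa5 chr6:24527691-24527840, minus strand: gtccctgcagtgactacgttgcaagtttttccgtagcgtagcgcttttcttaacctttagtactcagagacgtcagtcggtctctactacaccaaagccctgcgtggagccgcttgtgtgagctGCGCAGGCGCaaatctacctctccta
Atp5h chr11:115419920-115420069, minus strand: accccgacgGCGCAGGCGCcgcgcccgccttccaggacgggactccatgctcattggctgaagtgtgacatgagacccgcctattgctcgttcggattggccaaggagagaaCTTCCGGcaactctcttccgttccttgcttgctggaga
Sdha chr13:74350241-74350390, minus strand: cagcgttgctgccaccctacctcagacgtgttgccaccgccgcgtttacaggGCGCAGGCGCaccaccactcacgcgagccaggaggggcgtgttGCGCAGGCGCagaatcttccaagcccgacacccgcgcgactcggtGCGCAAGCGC
Sdha carried 3 NRF1 words and Atp5k and Ndufa5 carried 1 each in the stretch shown. Atp5h carried 1 NRF1 and 1 ETS word there. A match to these letters is a description of the sequence, and binding was not measured. Of the 21 members with a window that were called higher in M-MDSCs in all 4 comparisons, 8 held an NRF1 word somewhere in the window, and of the other 44 tested members with a window 8 did.

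Levels between genes were compared as normalized reads per kilobase of the longest coding transcript, averaged over the 24 libraries. The highest member was Atp5h, a peripheral stalk subunit of ATP synthase, at 1450 per kilobase. Cox4i1, the ubiquitous form of subunit 4 of cytochrome c oxidase, led complex IV at 817 per kilobase. Uqcrh, the hinge protein of complex III, stood at 576 and Sdha, the flavoprotein of succinate dehydrogenase, at 377 per kilobase. The lowest members of complexes II and III were Sdhc at 63.4 and Uqcr10 at 95.2 per kilobase, while the lowest of complex V was Atp5s at 7.09. All 12 genes of complexes II and III were tested, but Uqcr10 had as few as 3 reads in a PMN-MDSC library.

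The median member of each complex sat higher in M-MDSCs than in PMN-MDSCs. The median member level per kilobase was 137 in M-MDSCs and 74.7 in PMN-MDSCs for complex I, 197 and 152 for complex II, and 278 and 129 for complex III. It was 175 in M-MDSCs and 88.4 in PMN-MDSCs for complex IV, and 294 and 142 for complex V. Complex II showed the smallest gap between the cell types of the 5 complexes.

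Of the 84 members, 76 passed the filter of 10 or more normalized counts in at least 3 libraries. The other 8 were near or at 0, and 6 of them are known as tissue-restricted or alternative forms. Cox4i2, the form of subunit 4 known from lung, reached at most a normalized count of 6.42 with 18 reads over all libraries. Cox6a2, Cox7a1 and Cox8b, forms known from heart and skeletal muscle, reached at most 8.91, 3.06 and 7.42, and Cox7b2 and Cox8c, forms known from testis, 8.4 and 0. Ndufa4l2, known as a hypoxia-induced relative of Ndufa4, reached 5.04. The ubiquitous partners of these forms were well covered, as Cox4i1, Cox6a1, Cox7a2 and Cox8a all passed the filter.
Ndufs5, a small complex I subunit made in most tissues, was listed at 0 in all 24 libraries. Small subunits of the chain have many processed pseudogene copies, and how reads that match several copies were counted is not given in the sources used here, so a value of 0 for such a gene says only that it is listed at 0. Of all members, 15 overlap another protein-coding gene in the RefSeq annotation, among them Atp5a1 with Haus1 and Atp5j with Gabpa, and their counts are uncertain where reads could belong to either gene.

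The comparison of cell types asked whether the chain differs between monocytic and polymorphonuclear cells of mice of the same label and treatment. By share of tested members, complexes III and V had the most calls, at 62.5 to 87.5% and 64.7 to 76.5% over the groups. Complex I had 34.3 to 68.6% called and complex IV 16.7 to 50%, against 39.3 to 50.5% of all genes in either direction. In complex II 1 of the 4 genes was called in each group. A call is an adjusted p under 0.05 by limma with Benjamini-Hochberg adjustment over all 13457 genes tested. In lymphodepleted KO-labelled mice 40 of 76 members were higher and 0 lower, against 23.8% and 23.6% of all genes. In untreated KO-labelled mice 35 were higher and 1 lower, against 20.3% and 23.6%. In lymphodepleted WT-labelled mice 36 were higher and 0 lower, against 19.4% and 19.9%. In untreated WT-labelled mice 50 were higher and 1 lower, against 22.2% and 28.3%, or 50.5% of all genes in either direction.

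The median log2 difference of the members, M-MDSC minus PMN-MDSC, was 0.93 in lymphodepleted KO-labelled, 0.86 in untreated KO-labelled, 0.82 in lymphodepleted WT-labelled and 1.19 in untreated WT-labelled mice. The medians of all genes tested were 0.05, 0.05, 0.07 and −0.08 in the same groups. In each group between 71 and 73 of the 76 members lay above 0, and 68 did so in all 4. The members together made up 0.308 to 0.452% of reads in M-MDSC libraries and 0.101 to 0.261% in PMN-MDSC libraries, and these ranges did not overlap. In sorted bulk samples, fewer cells of a type and less RNA per cell cannot be told apart.

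**Figure D1:**
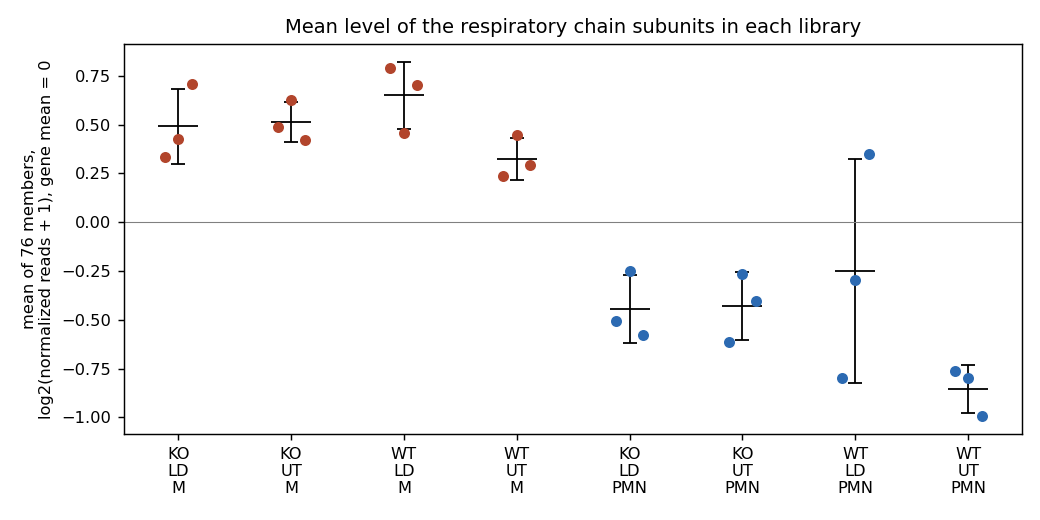
Mean over the 76 tested members of log2(normalized count + 1), each gene centred on its mean over the 24 libraries, with 1 point per library and the mean ± SD of each group of 3 (M-MDSC red, PMN-MDSC blue). All M-MDSC libraries lie between 0.24 and 0.79, and all PMN-MDSC libraries between −0.99 and −0.25 except WT-labelled LD replicate 3 at 0.35.

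A set of 25 members was called higher in M-MDSCs in all 4 groups, against 10.3% of all genes. They comprised 9 genes of complex I, 1 of complex II, 4 of complex III, 1 of complex IV and 10 of complex V. The 10 of complex V include Atp5sl, counted there by its symbol only. For 11 of 76 members every M-MDSC library lay above every PMN-MDSC library, against 8.38% of all genes.

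In complex V, Atp5a1, the catalytic-core alpha subunit of ATP synthase, had a lowest, median and highest normalized count of 2357, 3004 and 3601 in M-MDSCs and 946, 1292 and 1896 in PMN-MDSCs. The lowest M-MDSC library thus lay above the highest PMN-MDSC library. Its log2 difference lay between 0.89 ± 0.17 (SE; adjusted p = 0.000235, limma) in lymphodepleted WT-labelled mice and 1.44 ± 0.17 (adjusted p = 3.9e-07) in lymphodepleted KO-labelled mice. Atp5b, the beta subunit that carries the catalytic sites, ran at 1119, 1489 and 1897 in M-MDSCs and 570, 701 and 1448 in PMN-MDSCs, with an overlap. Atp5o, the stalk subunit that confers sensitivity to oligomycin, stood at 157, 220 and 343 in M-MDSCs and 21.6, 58.7 and 175 in PMN-MDSCs. It was called in all 4 groups, with log2 differences of 1.68 to 2.16.

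The c subunit, which forms the rotating ring of ATP synthase, is made by 3 genes for the same mature protein. Atp5g3 was called in all 4 groups, with log2 differences of 1.44 to 2.37. Atp5g2 was called in 3 and Atp5g1 in 2, and all 4 differences of each were above 0. Atp5g1 did not overlap between the cell types, at 38.7 to 101 in M-MDSCs and 0 to 38.6 in PMN-MDSCs, but its values in PMN-MDSCs were low. Atp5l, a small membrane subunit, was called in no group, at 75.4, 125 and 168 in M-MDSCs and 90.8, 145 and 220 in PMN-MDSCs.

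In complex III, 5 to 7 of the 8 members were called higher in each group and all 8 differences were above 0. Uqcrfs1, the Rieske iron-sulfur protein, had 367, 410 and 472 (lowest, median, highest) in M-MDSCs and 80.3, 172 and 280 in PMN-MDSCs. These ranges did not overlap, and the log2 differences were 1.08 to 1.57. Uqcrh did not overlap either, at 356 to 504 in M-MDSCs and 144 to 299 in PMN-MDSCs, and the core proteins Uqcrc1 and Uqcrc2 were called in all 4 groups at 0.96 to 1.30 and 0.92 to 0.98 on the log2 scale.

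In complex I, 12 to 23 of 35 tested members were called higher in each group, with medians between 0.74 and 1.28. Ndufb5, a membrane-arm subunit, stood at 133, 186 and 201 in M-MDSCs and 19.2, 51.4 and 98.3 in PMN-MDSCs. The 2 cell types were apart in every library, and its log2 difference was 1.77 to 2.10. Ndufs1, the largest iron-sulfur subunit of the NADH-oxidising arm, went the other way. It ran at 452, 512 and 657 in M-MDSCs and 587, 649 and 851 in PMN-MDSCs, with an overlap. It was lower in M-MDSCs of untreated WT-labelled mice (log2 −0.55 ± 0.16, SE; adjusted p = 0.00645, limma) and of untreated KO-labelled mice (−0.43 ± 0.16, adjusted p = 0.0312), and it was the one member below 0 in all 4 groups. The call in KO-labelled mice was lost when any of 4 of the 6 libraries was left out.

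Most of the other large differences were in small subunits with low counts and wide errors. Ndufa4, at 38.5, 70.9 and 117 in M-MDSCs and 2.18, 18.2 and 53.3 in PMN-MDSCs, was called in 3 groups, with log2 differences of 1.6 to 2.35 over the 4. Ndufa9, an accessory subunit of complex I, was called in all 4 at 1.39 to 1.76. Ndufc2, a membrane-arm subunit, was called in both KO-labelled comparisons, averaging 101 in M-MDSCs and 13.2 in PMN-MDSCs of untreated mice (3.77 ± 0.89, log2 and SE). Its call in lymphodepleted mice was lost in 5 of 6 fits with 1 library left out. Ndufa12 was called in the same comparisons, and Ndufc1 in both WT-labelled ones, where it averaged 22.2 in M-MDSCs and 3.9 in PMN-MDSCs of untreated mice. With 1 library left out, the call of Ndufa12 was lost in 5 of 6 fits in lymphodepleted and 1 of 6 in untreated mice, and that of Ndufc1 in 3 and 2 of 6. The calls of Ndufa4 were lost in 3 of 6 fits in lymphodepleted KO-labelled and 1 of 6 in untreated WT-labelled mice, and that of Ndufa9 in 1 of 6 in lymphodepleted WT-labelled mice. Ndufv1, the subunit that binds NADH, had a narrower error and was called in 3 groups, at 0.45 to 1.02 over the 4 with a standard error of 0.19, and its call in untreated KO-labelled mice was lost in 2 of 6 fits. Ndufa11 was called in 3 groups and Ndufb2 in 1.

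In complex IV all 12 differences of tested members were above 0 in each group, but fewer were called. In untreated KO-labelled mice 2 of 12 were called higher, against 20.3% of all genes, and in the other 3 groups 5 or 6 were, against 19.4 to 23.8%. Cox6c, a small structural subunit, was the one member called in all 4, at 389, 558 and 794 in M-MDSCs and 124, 231 and 547 in PMN-MDSCs. The ranges overlapped, and the log2 differences were 1.06 to 1.55. Cox4i1 was called in 3 groups with differences of 0.50 to 1.23, and its call in lymphodepleted WT-labelled mice was lost in 4 of 6 fits with 1 library left out. Cox6b2, known as a testis form, was called in 3 groups but at low levels, with 7.27 to 19.3 in M-MDSCs and 0 to 24.1 in PMN-MDSCs, and its call was lost in 5 of 6 fits in untreated WT-labelled mice, 2 of 6 in untreated KO-labelled and 1 of 6 in lymphodepleted KO-labelled mice. Cox5a and Cox7c were called in 2 groups each, and Cox7b and Cox8a in 1 each. The calls of Cox5a were lost in up to 3 of 6 fits, that of Cox7b in 3 and that of Cox8a in 4. Cox7a2l, known as a factor that joins complexes III and IV in supercomplexes, was called in none, at 385, 503 and 617 in M-MDSCs and 194, 407 and 645 in PMN-MDSCs.

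In complex II, Sdhc, a membrane anchor, was higher in all 4 groups by 0.70 to 1.26 on the log2 scale, at 201, 270 and 334 in M-MDSCs and 90.5, 132 and 220 in PMN-MDSCs. The other 3 subunits were called in none. Sdha had 1004, 1149 and 1317 in M-MDSCs and 803, 1028 and 1172 in PMN-MDSCs, largely overlapping, with log2 differences of 0.03 to 0.32 and standard errors of 0.15. A call missed at this spread does not show that Sdha was equal in the 2 cell types.

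**Figure D2:**
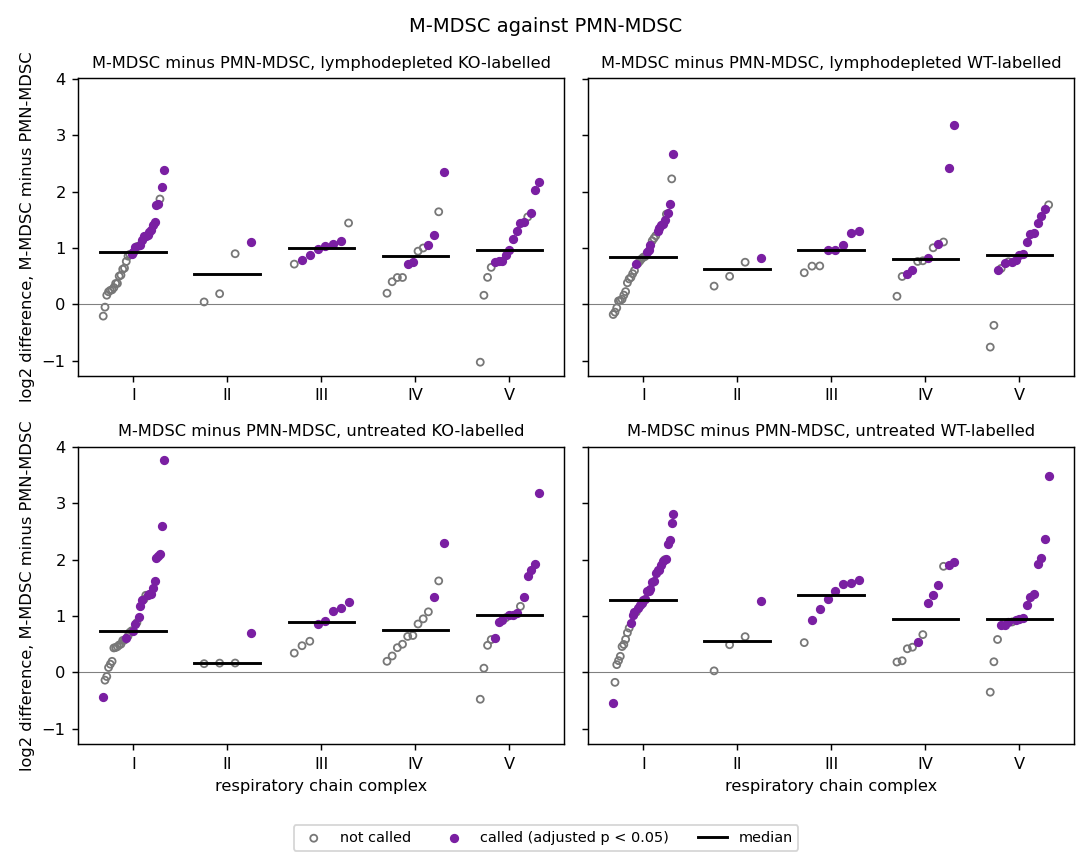
Log2 difference of each tested member, M-MDSC minus PMN-MDSC, by complex in the 4 combinations of treatment and genotype label; filled points were called (adjusted p under 0.05) and the black line is the median of the complex. Most members lie above 0 in each panel, the called members below 0 being Ndufs1 in the untreated panels.

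Single libraries moved these counts. The calls of Atp5a1, Atp5b, Uqcrfs1 and Sdhc held in all 4 groups with each library left out in turn, while those of Atp5g2 and Atp5g3 were lost in up to 2 of 6 fits and that of Uqcrc1 in 1 of 6. Without WT-labelled LD PMN-MDSC replicate 1, the shallowest library, 18 members were called in lymphodepleted WT-labelled mice in place of 36, and without replicate 3 of that group 52 were. Without KO-labelled LD M-MDSC replicate 3, 26 were called in lymphodepleted KO-labelled mice in place of 40. Without the 3 shallowest PMN-MDSC libraries, 20 were called in lymphodepleted WT-labelled mice. The counts of all genes in these fits are not given here, so a shift shared by all genes cannot be told apart from one of the members.

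Transcript length moved with the same difference in genes outside the set. Of the 76 tested members, 42 had transcripts under 1000 bases. In lymphodepleted KO-labelled mice the members' median log2 difference was 0.89 in that class, 0.90 from 1000 to under 2000 bases and 1.23 at 2000 bases or more, while that of other genes was 0.80, 0.31 and −0.06. In untreated WT-labelled mice the members' medians were 1.23, 0.94 and 1.31 and those of other genes 0.77, 0.21 and −0.21. In lymphodepleted WT-labelled mice the members' medians were 0.83, 0.77 and 0.82 and those of other genes 0.90, 0.31 and −0.01. In untreated KO-labelled mice the members' medians were 0.86, 0.90 and 0.85 and those of other genes 0.82, 0.28 and −0.07. The part of length in the result was not tested.

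Markers of other cells also differed between the cell types. Red pulp macrophage markers, 9 of 10 listed genes measured and 0 of them at 0, summed to 421 to 1180 in M-MDSC libraries and 2445 to 5905 in PMN-MDSC libraries. Slc40a1, the iron exporter, carried most of that sum, averaging 126 in M-MDSCs and 3230 in PMN-MDSCs of lymphodepleted KO-labelled mice, while Spic averaged 42.7 and 5.26 there and was called higher in M-MDSCs. The 9 natural killer (NK) cell markers, 0 of them at 0, summed to 8303 to 11376 in M-MDSCs and 732 to 2697 in PMN-MDSCs of untreated KO-labelled mice, and to 2021 to 2427 in M-MDSCs and 413 to 547 in PMN-MDSCs of untreated WT-labelled mice. The primary granule gene Mpo averaged 5758 in M-MDSCs and 523 in PMN-MDSCs of lymphodepleted WT-labelled mice. The cell cycle gene Mcm3 averaged 1267 in M-MDSCs and 151 in PMN-MDSCs of lymphodepleted KO-labelled mice. The part of these cells and states in the members' difference was not tested.

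Lymphodepletion was compared within each genotype label. In WT-labelled mice of both cell types, members lay mostly above 0, while in KO-labelled mice they scattered around 0. The number that passed the test was small throughout. In WT-labelled M-MDSCs 7 of 76 members rose and 1 fell, against 9.52% and 8.82% of all genes, so the share that rose was near that of all genes. The members' median log2 change was 0.33, that of all genes −0.07, and 67 members (88.2%) lay above 0 against 43.9% of all genes. Other genes under 1000 bases had a median of 0.22, with 68.3% above 0 and 16.4% called higher, against 0.37, 90.5% and 14.3% for the 42 members of that length. For 21 members all LD libraries lay above all UT libraries and for 2 below, against 16.9% and 21.9% of all genes.

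Cox5b, a nuclear subunit of cytochrome c oxidase that binds zinc, had normalized counts of 717, 757 and 990.5 in LD and 492, 460 and 441 in UT WT-labelled M-MDSCs. The groups did not overlap, and the change was 0.81 ± 0.18 (log2, SE; adjusted p = 0.00701, limma). In KO-labelled M-MDSCs it had 451, 776 and 593 in LD and 531, 553 and 470 in UT libraries, which overlapped. Ndufa5, an accessory subunit of complex I, had 107, 108 and 121 in LD and 69.9, 64.9 and 56.6 in UT WT-labelled M-MDSCs (0.80 ± 0.20, adjusted p = 0.0119, limma). Atp5b had 1897, 1507 and 1811 in LD and 1346, 1292 and 1119 in UT libraries of that kind (0.47 ± 0.14, adjusted p = 0.0295, limma). Both sets of 3 stood clear of their untreated libraries. The other members that rose were Atp5k, Ndufb3, Atp5o and Cox8a, by 0.63 to 0.72 on the log2 scale. The calls of Cox5b held when each of the 6 libraries was left out in turn, while those of the other 6 were lost in 2 to 5 of these fits.

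Atp5sl was the member that fell. It had 155, 158 and 156 in LD and 256, 241 and 222 in UT WT-labelled M-MDSCs, so all 3 treated libraries were lower (−0.61 ± 0.13, adjusted p = 0.00582, limma), and the call held without each library in turn. In KO-labelled M-MDSCs it had 181, 178 and 186 in LD and 198, 191 and 198 in UT libraries, a smaller step in the same direction that was not called (−0.10 ± 0.13). Every KO-labelled M-MDSC library lay between the LD and UT libraries of the WT label.

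**Figure D3:**
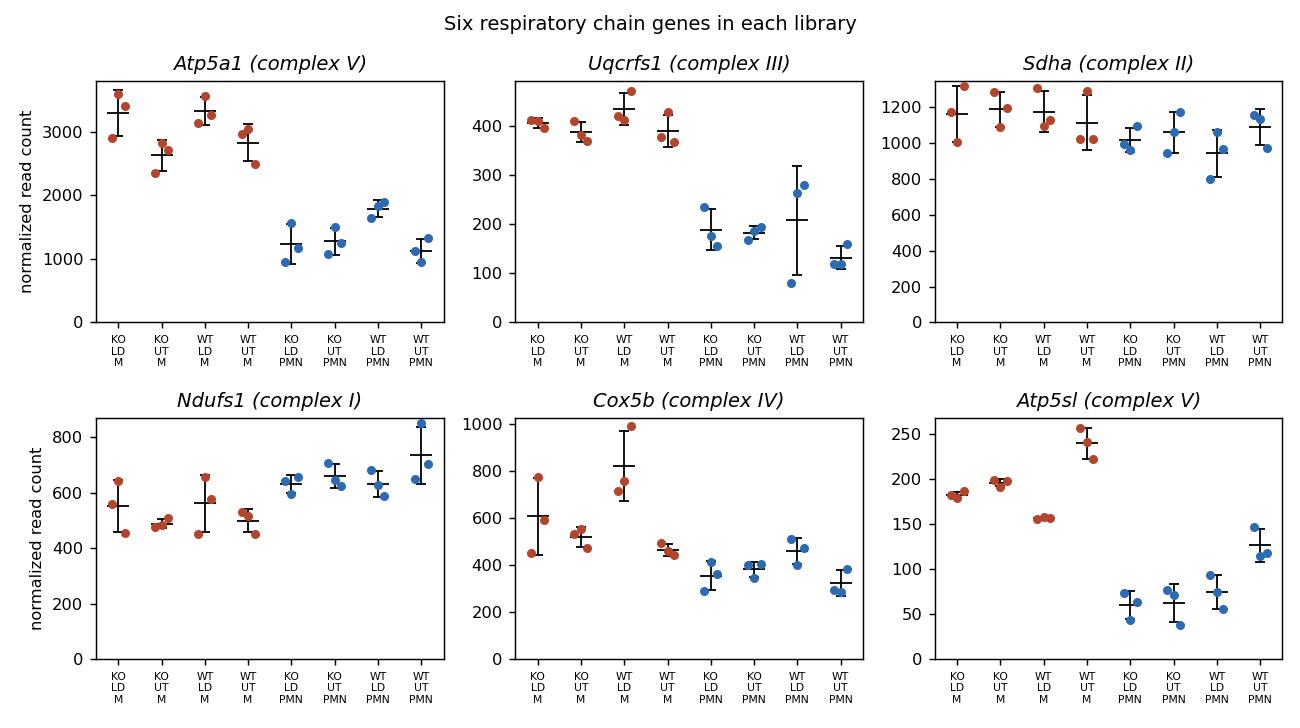
Normalized read count of 6 members in each library (points; M-MDSC red, PMN-MDSC blue) with the mean ± SD of each group of 3. Atp5a1 and Uqcrfs1 separate the cell types, Sdha and Ndufs1 lie close between them, and Cox5b and Atp5sl differ between LD and UT libraries of WT-labelled M-MDSCs.

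In KO-labelled M-MDSCs 0 of 76 members were called, against 11.6% of all genes (6.11% higher and 5.52% lower). Of the members, 8 had an unadjusted p under 0.05, and edgeR and DESeq2 called 0 as well. The median was −0.03 and 35 lay above 0. For 10 members all LD libraries lay above all UT libraries and for 1 below, against 13.7% and 13.6% of all genes. In WT-labelled PMN-MDSCs 1 of 75 members rose and 0 fell, against 4.14% and 6.73% of all genes, and 13 had an unadjusted p under 0.05. The median was 0.53, that of all genes −0.20, and 66 members lay above 0. The members' median was 0.24 without WT-labelled LD replicate 3 and 0.78 without replicate 1. Other genes under 1000 bases had a median of 0.05, against 0.60 for the 41 members of that length. The scaling moved the median of all genes to −0.0046 by edgeR, −0.02 by DESeq2 and −0.05 with quantile normalization, where the members' medians were 0.74, 0.71 and 0.50. The split of all called genes, 537 higher and 873 lower by limma, was 629 and 391 by edgeR, 1037 and 971 by DESeq2 and 469 and 356 with quantile normalization. By edgeR 1 member was called. DESeq2 called 8 members. For 14 members all LD libraries lay above all UT libraries and for 1 below, against 12% and 20.9% of all genes. In KO-labelled PMN-MDSCs 0 members were called, against 0.224% of all genes, 0 had an unadjusted p under 0.05, edgeR and DESeq2 called 0, and the median was −0.05. For 1 member all LD libraries lay above all UT libraries and for 4 below, against 6.03% and 9.81% of all genes.

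Ndufv3, a small subunit of the NADH-binding module of complex I, was the one member that rose in WT-labelled PMN-MDSCs. It had 302, 218 and 495 in LD and 95.4, 134 and 189 in UT libraries (1.24 ± 0.38, adjusted p = 0.0483, limma). The groups did not overlap, but the call was close to the threshold and was lost when 5 of the 6 libraries were left out one at a time. In KO-labelled PMN-MDSCs Ndufv3 had 178, 417 and 196 in LD and 195, 163 and 141 in UT libraries (0.57 ± 0.38).

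The 3 LD WT-labelled PMN-MDSC libraries stood far apart from each other, with mean centred log2 levels of the members at −0.80, −0.30 and 0.35, against −0.76, −0.80 and −0.99 in the UT libraries. Replicate 1, the lowest, was the shallowest library of all and had 18.0% Rn45s. Replicate 3, the highest, also held the largest sum of the 25 cell cycle genes, 43914 against 14904 and 19208 in the others, and of the 10 primary granule and progenitor genes, 6118 against 2350 and 2602. Its monocyte markers, 9 of 9 measured, summed to 4158, below those of replicates 1 and 2 at 4857 and 6729. Its 10 mature neutrophil markers summed to 607417, against 185066 and 152863 in the others. The part of these differences in the spread was not tested. Without replicate 1, 9 members were called in this comparison, and without replicate 3, 0 were. Without the 3 shallowest PMN-MDSC libraries 4 were called. The counts of all genes in these fits are not given here.

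In WT-labelled M-MDSCs the count of 8 calls ran from 2, without LD replicate 3 or UT replicate 3, to 15, without LD replicate 2. It was 4 without any of LD replicate 1, UT replicate 1 or UT replicate 2. The counts of all genes in these fits are not given here. By complex, the medians in WT-labelled M-MDSCs with all libraries were 0.24 for complex I, 0.33 for complex II, 0.30 for complex III, 0.55 for complex IV and 0.36 for complex V. In KO-labelled M-MDSCs they were −0.02, 0.06, 0.05, −0.13 and −0.11 in the same order. In WT-labelled PMN-MDSCs they were 0.60, 0.30, 0.42, 0.42 and 0.57, and in KO-labelled PMN-MDSCs −0.04, −0.06, −0.05, −0.25 and −0.04.

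**Figure D4:**
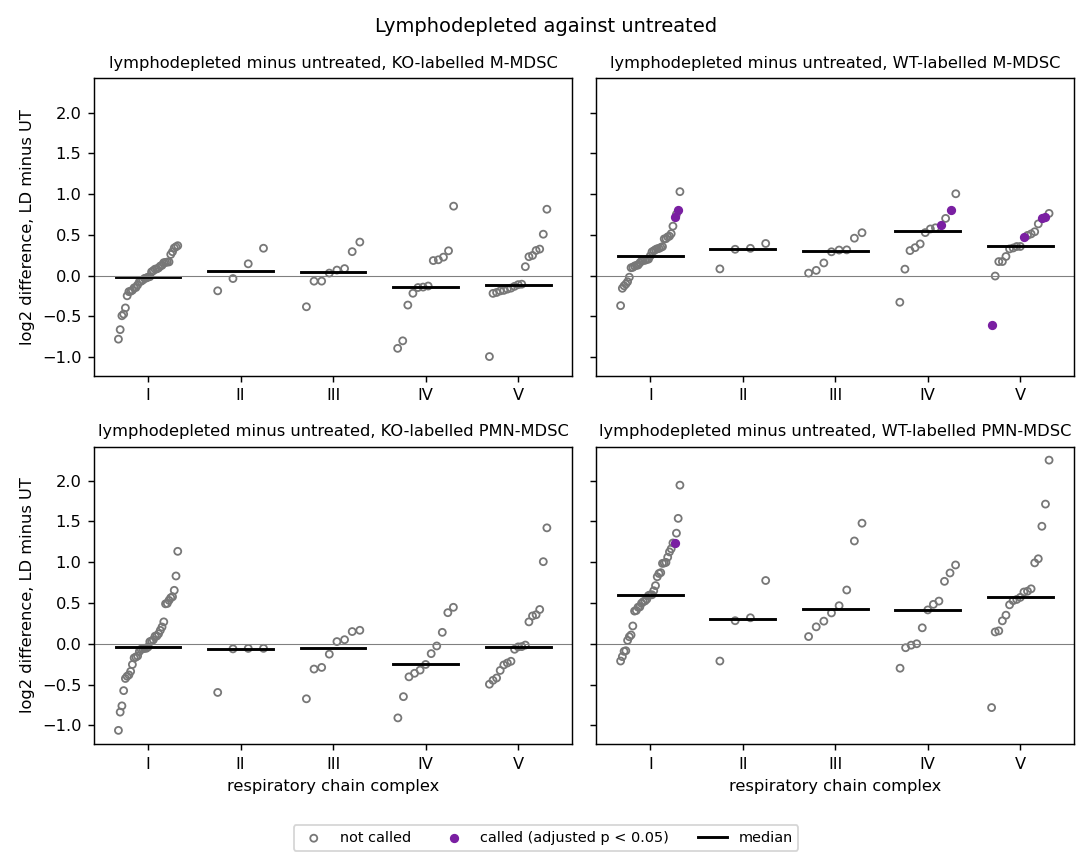
Log2 change of each tested member, lymphodepleted minus untreated, by complex, in M-MDSCs (top) and PMN-MDSCs (bottom) of KO-labelled (left) and WT-labelled (right) mice; filled points were called (adjusted p under 0.05) and the black line is the median of the complex. All 5 medians lie above 0 in both WT-labelled panels, with 8 called members in M-MDSCs and 1 in PMN-MDSCs, and 0 members were called in the KO-labelled panels.

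Marker genes of other cells and states moved with lymphodepletion too. The 25 cell cycle genes summed to 25491 to 41476 in LD and 1843 to 2122 in UT WT-labelled M-MDSCs, and to 19653 to 44079 in LD and 2111 to 13358 in UT KO-labelled M-MDSCs. Of these 25 genes, 24 rose in KO-labelled M-MDSCs, against 6.11% of all genes. In WT-labelled PMN-MDSCs they summed to 14904 to 43914 in LD and 2637 to 3170 in UT libraries. The 10 B cell markers summed to 103 to 175 in LD and 657 to 726 in UT WT-labelled M-MDSCs, and the 10 primary granule and progenitor markers to 5558 to 18056 in LD and 168 to 281 in UT libraries. The 10 mature neutrophil markers measured summed to 12355 to 51886 in LD and 3922 to 4132 in UT WT-labelled M-MDSCs, and the 9 NK cell markers to 247 to 543 in LD and 2021 to 2427 in UT libraries. Of the 8 erythroid markers, which summed to 63.8 to 341 in LD and 8.49 to 18.8 in UT libraries, 2 were at 0 throughout the LD group and 3 throughout the UT group. In the cell cycle, B cell, primary granule, mature neutrophil and NK cell lists 0 genes were at 0 throughout a group. Of the T cell markers, 1 was at 0 throughout the LD WT-labelled PMN-MDSC group. The part of these cells and states in the members' levels was not tested. Within each group the library with the most Rn45s was also the one with the lowest mean of the members in 5 of the 8 groups, and the part of Rn45s was not tested.

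The genotype labels were compared within each treatment, and no member passed the test. In LD M-MDSCs 0 of 76 members were called, against 0.207% of all genes (0.156% higher and 0.0519% lower). Before adjustment 4 had a p under 0.05, with a median log2 difference, KO minus WT, of −0.16, which ran between −0.25 and −0.07 with 1 library left out. The median of all genes was 0.007, and that of other genes under 1000 bases −0.14, against −0.17 for the 42 members of that length. For 1 member all KO-labelled libraries lay above all WT-labelled ones and for 3 below, against 6.26% and 5.03% of all genes. In UT M-MDSCs 0 were called, against 4.03% of all genes (2.24% higher and 1.79% lower). Before adjustment 10 had a p under 0.05, with a median of 0.17, and edgeR called 1 and DESeq2 2. The median of all genes was 0.006. Other genes under 1000 bases had a median of 0.22 with 68.7% above 0, against 0.18 and 66.7% for the 42 members of that length. For 18 members all KO-labelled libraries lay above all WT-labelled ones and for 5 below, against 16.1% and 17.9% of all genes. NK cell markers summed to 8303 to 11376 in KO-labelled and 2021 to 2427 in WT-labelled libraries there, and the 11 T cell markers measured to 1013 to 1855 and 286 to 449. Mpo averaged 2124 in KO-labelled and 39.5 in WT-labelled UT M-MDSCs. The part of these cells in the members' values was not tested. In LD PMN-MDSCs 0 of 75 were called, against 0.0154%, with 2 at an unadjusted p under 0.05 and a median of −0.21. The median of all genes was 0.04, and that of other genes under 1000 bases −0.06, against −0.22 for the 41 members of that length. For 0 members all KO-labelled libraries lay above all WT-labelled ones and for 5 below, against 5.32% and 4.9% of all genes. In UT PMN-MDSCs 0 were called, against 0.00771%, with 3 at an unadjusted p under 0.05 and a median of 0.43. In the other 3 of these comparisons edgeR and DESeq2 called 0. In UT M-MDSCs the scaling moved the split of all called genes, 259 higher and 207 lower by limma against 361 and 138 by edgeR and 714 and 357 by DESeq2.

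In UT PMN-MDSCs 65 of 75 members lay above 0, against 45.9% of all genes, whose median was −0.05. Other genes under 1000 bases had a median of 0.27 with 67.6% above 0, against 0.49 and 90.2% for the 41 members of that length. For 19 members all KO-labelled libraries lay above all WT-labelled ones, against 6.21% of all genes, and for 1 below, against 6.91%. Cox4i1 was among the members with the smallest p, at 480, 542 and 520 in KO-labelled and 330, 371 and 261 in WT-labelled UT PMN-MDSCs. The groups did not overlap, but the adjusted p was 0.933 by limma (0.69 ± 0.27 on the log2 scale). The median of the LD PMN-MDSCs depended on 1 library, and without WT-labelled LD replicate 3 it was 0.14.

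The test of whether the response to lymphodepletion differed between the labels also called no member. In M-MDSCs 0 of 76 members were called, against 0.00864% of all genes, and by edgeR and DESeq2 0 were called as well. There were 15 at an unadjusted p under 0.05, and 59 of 76 lay below 0, meaning a lower log2 change in the KO-labelled cells. Above 0 lay 22.4% of members, against 49.9% of all genes. Other genes under 1000 bases had a median of −0.30 with 27.7% above 0, against −0.32 and 23.8% for the 42 members of that length. The part of length was not tested. Cox7b, a small subunit of complex IV, had the smallest adjusted p, 0.338 by limma. It had 95.0, 94.0 and 289 in LD and 344, 287 and 169 in UT KO-labelled M-MDSCs, against 379, 111 and 228 in LD and 79.3, 112 and 132 in UT WT-labelled ones. Its libraries overlapped in both labels. In PMN-MDSCs 0 of 75 were called by limma, edgeR or DESeq2, against 0.0% of all genes by limma, with 4 at an unadjusted p under 0.05 and 62 below 0. Above 0 lay 17.3% of members, against 55.2% of all genes. Other genes under 1000 bases had a median of −0.32 with 40.3% above 0, against −0.67 and 17.1% for the 41 members of that length. Ndufa10, an accessory subunit of complex I, had the smallest adjusted p there, 0.567 by limma.

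The response to lymphodepletion was also compared between the cell types, M-MDSC minus PMN-MDSC. In WT-labelled mice 0 of 76 members were called, against 0.788% of all genes, and in KO-labelled mice 0, against 0.0966%. In WT-labelled mice 4 members had an unadjusted p under 0.05, led by Cox4i1 (−0.69 ± 0.29), and 0 in KO-labelled mice, and edgeR and DESeq2 called 0 in both. The split of all genes called in WT-labelled mice was 79 higher and 27 lower by limma, 50 and 32 by edgeR and 231 and 130 by DESeq2, and the median of all genes there was 0.16 by limma and 0.0046 by edgeR. The count of members in WT-labelled mice was 1 without LD PMN-MDSC replicate 1 and 2 without the 3 shallowest PMN-MDSC libraries. The counts of all genes in these fits are not given here.

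Other nuclear genes of the mitochondrion were described beside the members. The mitochondrial ribosomal proteins, which translate the subunits made inside the organelle, showed the same direction between cell types. Of 76 tested, 37 were higher and 2 lower in M-MDSCs of lymphodepleted KO-labelled mice, 31 and 2 in untreated KO-labelled, 29 and 2 in lymphodepleted WT-labelled and 48 and 2 in untreated WT-labelled mice. Over all genes, 23.8, 20.3, 19.4 and 22.2% were higher and 23.6, 23.6, 19.9 and 28.3% lower in the same order. Mrps25 averaged 282 in M-MDSCs and 102 in PMN-MDSCs of lymphodepleted WT-labelled mice, whereas Mrpl33 averaged 191 in M-MDSCs and 581 in PMN-MDSCs of lymphodepleted KO-labelled mice. Of 18 genes for pyruvate dehydrogenase and the TCA cycle, 9 to 15 were higher and 0 or 1 lower. The shares of all genes were 19.4 to 23.8% and 19.9 to 28.3%. Idh2, the mitochondrial NADP-dependent isocitrate dehydrogenase, averaged 336 in M-MDSCs and 35.8 in PMN-MDSCs of lymphodepleted KO-labelled mice (3.22 ± 0.40, adjusted p = 7.04e-07, limma).

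Assembly factors were split. Over all genes, 19.4 to 23.8% were higher and 19.9 to 28.3% lower in the comparisons of cell types. Of 13 complex I assembly factors 5 to 8 were higher and 0 lower in M-MDSCs, among them Acad9, which averaged 199 in M-MDSCs and 93.7 in PMN-MDSCs of untreated WT-labelled mice. Of 26 factors for complexes II to V, 4 to 8 were higher and 1 or 2 lower, so the share higher was near that of all genes. Cox17, the copper chaperone of cytochrome c oxidase, was lower, averaging 140 in M-MDSCs and 337 in PMN-MDSCs of untreated WT-labelled mice (−1.27 ± 0.19, adjusted p = 9.2e-06, limma). Cox10, which makes haem A for the same enzyme, averaged 108 in M-MDSCs and 21.4 in PMN-MDSCs there. Of 16 chain-related genes outside the symbol pattern, 6 to 10 were higher and 0 lower. Slc25a4 and Slc25a5, the carriers that exchange ADP for ATP, led them, Slc25a4 with means of 383 in M-MDSCs and 23.9 in PMN-MDSCs of lymphodepleted KO-labelled mice.

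Regulators of mitochondrial gene expression did not share one direction. Of 13 tested, 3 to 6 were higher and 4 or 5 lower in M-MDSCs. The shares of all genes were 19.4 to 23.8% and 19.9 to 28.3%. Pprc1, a coactivator related to PGC-1, averaged 429 in M-MDSCs and 73.2 in PMN-MDSCs of lymphodepleted KO-labelled mice, and Tfam, which packages and transcribes mitochondrial DNA, 170 and 52.0 in lymphodepleted WT-labelled mice. Gabpb1, a subunit of the ETS-family factor GABP, was lower, at 187 in M-MDSCs and 480 in PMN-MDSCs of lymphodepleted KO-labelled mice (−1.35 ± 0.22, adjusted p = 3.03e-05, limma).

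Under lymphodepletion, Atpif1, the inhibitor that stops ATP synthase from running in reverse, rose in 3 of the 4 groups of mice and cells. It averaged 999 in LD and 448 in UT KO-labelled M-MDSCs, 1152 in LD and 590 in UT WT-labelled M-MDSCs, and 907 in LD and 357 in UT WT-labelled PMN-MDSCs. Its log2 changes were 1.16 ± 0.28, 0.97 ± 0.28 and 1.21 ± 0.30, with adjusted p = 0.0151, 0.0265 and 0.0244 by limma. Of the mitochondrial ribosomal proteins 3 rose in WT-labelled M-MDSCs, a share below the 9.52% of all genes. The list's median was 0.19 there and 0.43 in WT-labelled PMN-MDSCs. Genes under 1000 bases outside the members had medians of 0.22 and 0.05 in the same order. The TCA cycle genes Fh1 and Mdh2 rose in WT-labelled M-MDSCs, by 0.63 ± 0.18 and 0.47 ± 0.15 on the log2 scale.

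Over the 24 libraries the genes outside the set whose centred log2 levels followed the members' mean most closely were Pdia3 (r = 0.976), Ppia (0.969), Pigt (0.967), Polr2m (0.966) and Fdps (0.966). Within the 12 M-MDSC libraries r was 0.868 for Pdia3 and 0.930 for Ppia, and within the 12 PMN-MDSC libraries 0.899 and 0.866. These are descriptions, since the libraries share the split between cell types and their depth.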

How the data were processed

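The authors deposited 1 table with a normalized read count (signal) per gene and library. The submitters' processing notes name the mm10 build of the mouse genome together with HTSeq 0.6.1, DESeq2 and STAR 2.5.3a. No annotation, strand setting or filter is given in the sources used here. Per the labels' protocols, libraries were made from 100 ng of total RNA with NuGen Ovation kits and probe-based rRNA depletion. Values are counts divided by 1 factor per library, and whole reads were recovered for 100% of values (tolerance 0.001 reads), which gave the depths of 3249647 to 11193088. The series' design text gives 3 mice for each kind except KO-labelled LD mice, where it gives no number. The error behind each p-value is pooled over all groups of its fit. It thus mixes the spread between animals with that of the KO-labelled LD groups, which is between samples and may be technical. This holds also for comparisons within the WT label. Whether both cell types of 1 number came from 1 mouse is not stated.

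In R 4.3.3, limma 3.58.1 with a variance trend was fitted on log2(normalized count + 1). Comparisons within a cell type used its 12 libraries (11570 genes in M-MDSCs, 12971 in PMN-MDSCs), and comparisons of cell types and their interactions all 24 (13457 genes), with 1 mean per group and no covariate. Genes needed 10 or more normalized counts in 3 or more fitted libraries. Fold changes on this scale understate those of low genes. Tests were two-sided, with Benjamini-Hochberg adjustment over the genes tested and calls at an adjusted p under 0.05. Alternatives on the recovered reads were edgeR 4.0.16 with TMM scaling and its quasi-likelihood test and DESeq2 1.42.0. Others were quantile normalization, a pseudocount of 5, no filter, a block for the replicate number, and leaving out each library. Scripts were tested on simulated data. Lengths came from GENCODE vM21 and promoters from RefSeq GRCm38.p6, whose last bases lay in the gene's own transcript for 65 of 73 starts checked.

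The members, companion gene lists and marker lists were chosen with earlier results of these data known. Genes named are fixed key members, up to 6 called members with the largest rise or fall per comparison, the highest and lowest per complex, members no filter kept, up to 2 called genes per companion list, and the 5 genes most like the members' mean. Cox6c, Atp5l and Uqcrc2 stand outside this rule in the cell type comparisons and were chosen after their values were seen. A gene that this rule would name is not reported here.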

Additional observations from a re-analysis of the deposited data

How the results depend on the processing

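Of 71 calls of single members, 41 held under every alternative and 0 changed sign. Counts of members called by limma moved by over 1.5 times as follows, and the cause was not tested. Lymphodepletion in WT-labelled M-MDSCs (8 called) gave 4 with quantile normalization, 14 by DESeq2 and 2 to 15 with 1 library left out. In WT-labelled PMN-MDSCs (1 called) it gave 0 without a filter, 8 by DESeq2, 4 without the 3 shallowest PMN-MDSC libraries, and 0 to 9 with 1 library left out. In KO-labelled M-MDSCs (0 called) leaving out 1 library gave 0 to 2. M-MDSC minus PMN-MDSC gave 26 in lymphodepleted KO-labelled mice (40 called) with quantile normalization and 26 to 38 with 1 library left out. In lymphodepleted WT-labelled mice (36 called) it gave 18 to 52 with 1 library left out and 20 without the 3 shallowest. The difference in response between cell types in WT-labelled mice (0 called) gave 0 to 1 with 1 library left out and 2 without the 3 shallowest. KO minus WT in untreated M-MDSCs (0 called) gave 1 by edgeR and 2 by DESeq2. Leaving out the 3 shallowest was chosen after seeing the data. For the fits with libraries left out the counts of all genes are not given, so these shifts may be shared by all genes. The medians of 3 comparisons changed sign. Lymphodepletion in KO-labelled PMN-MDSCs was 0.0019 by edgeR (−0.05), in KO-labelled M-MDSCs −0.103 to 0.0675 with 1 library left out (−0.03), and KO minus WT in lymphodepleted PMN-MDSCs −0.43 to 0.14 (−0.21).

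Replicate numbers are shared between groups. Over all 84 pairs of libraries of 1 number the median correlation of their deviations was 0.003, with 12 above 0.1. Many of these pairs join mice of different treatment or label. In the 12 pairs of M-MDSC and PMN-MDSC libraries of 1 group the median was 0.033, with 4 above 0.1. These values do not settle whether such pairs share a mouse. The numbers were not taken to pair samples, and the cell type tests treat all libraries as independent. With the replicate block, 4 members were called in WT-labelled M-MDSCs and 0 in WT-labelled PMN-MDSCs under lymphodepletion. The PMN-MDSC libraries included the shallowest, of 3249647 reads, and the part of depth in the counts was not tested.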
